A study of Mus musculus with 24 samples.

Results

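Hyaluronan is a long, unbranched sugar polymer of the extracellular matrix, and 9 genes that make, cut or bind it were followed in cultured mouse lung fibroblasts. The 9 genes, chosen by symbol, were the synthases Has1, Has2 and Has3, the hyaluronidases Hyal1 and Hyal2, the hyaluronan-degrading protein gene Cemip, the receptor gene Cd44, and the matrix-organizing partners Tnfaip6 and Ptx3. They are 9 of the 55291 gene names counted in each library, and all 9 had reads in all 24 libraries. The cells were pulmonary fibroblasts of C57BL/6 background from mice 4 to 8 weeks old, labelled WT or TLR4-/-, each group isolated from a pool of 3 to 4 lungs and used at passages 3 to 6 after a night in reduced-serum medium. Each genotype was treated for 24 h with PBS, with recombinant murine CIRP (rmCIRP, at 1 µg/ml), with recombinant murine TGF-β1 (rmTGF-β1, at 2 ng/ml), or with these agents together, called the combination here. There were 3 libraries for each of the 8 conditions. CIRP is a cold-inducible RNA-binding protein that acts as a danger signal outside cells, with TLR4 among its receptors, and TGF-β1 is the growth factor best known for driving fibroblasts to make matrix. The labels do not say whether the 3 libraries of a condition came from separate cultures, so the p-values measure only the spread between these libraries, which may be technical.

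Hyaluronan synthases sit in the plasma membrane and extend the chain from UDP-glucuronic acid and UDP-N-acetylglucosamine while pushing it out of the cell. HYAL2 and CEMIP cut long chains at or near the cell surface, HYAL1 cuts shorter pieces in lysosomes, and CD44 is the main surface receptor through which fibroblasts hold hyaluronan. TSG-6, the product of Tnfaip6, transfers heavy chains of inter-alpha-trypsin inhibitor onto hyaluronan, and the pentraxin PTX3 helps crosslink such modified chains. In the lung, hyaluronan accumulates around activated fibroblasts during injury and repair, and fragments of it are known ligands of TLR4 and CD44.

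Between 29853346 and 39664606 reads per library were counted on genes. A gene's level is given as its normalized count, which is the read count divided by a median-of-ratios size factor, and 16258 genes, all 9 members among them, passed the filter on low counts and were tested. Called means an adjusted p under 0.1 from edgeR, and a log2 fold change is the difference between conditions in the edgeR model. Tlr4 mRNA did not separate the genotypes as a transcript loss would: with PBS its mean was 903 normalized counts in the libraries labelled TLR4-/- and 759 in WT (log2 fold change 0.25, SE 0.06, adjusted p = 0.0012, edgeR), so these libraries are referred to by their label. Fibroblast markers were high in both genotypes (9 of 9 markers tested, summed 580490 to 618384 normalized counts in WT and 550141 to 611679 in libraries labelled TLR4-/-, with PBS). Macrophage markers stood beside them: all 15 were higher in the libraries labelled TLR4-/-, where their sum was 352406 to 402419 normalized counts with PBS against 92582 to 100966 in WT. T and B lymphocyte markers summed to at most 12.9 normalized counts with PBS. In bulk RNA, fewer cells of a type and less RNA per cell cannot be told apart, and the part of the macrophage markers in the differences between genotypes was not tested.

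Libraries that stood apart were found among those labelled TLR4-/- with rmTGF-β1. The SD of a library's log2 differences from the other libraries of its condition was 0.309 for library 3 and 0.229 for library 1 with the combination and 0.215 for library 3 with rmTGF-β1, against 0.126 to 0.193 for the other 21 libraries. Results that rest on these libraries are given below with and without library 3 of each of these conditions.

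**Figure D1:**
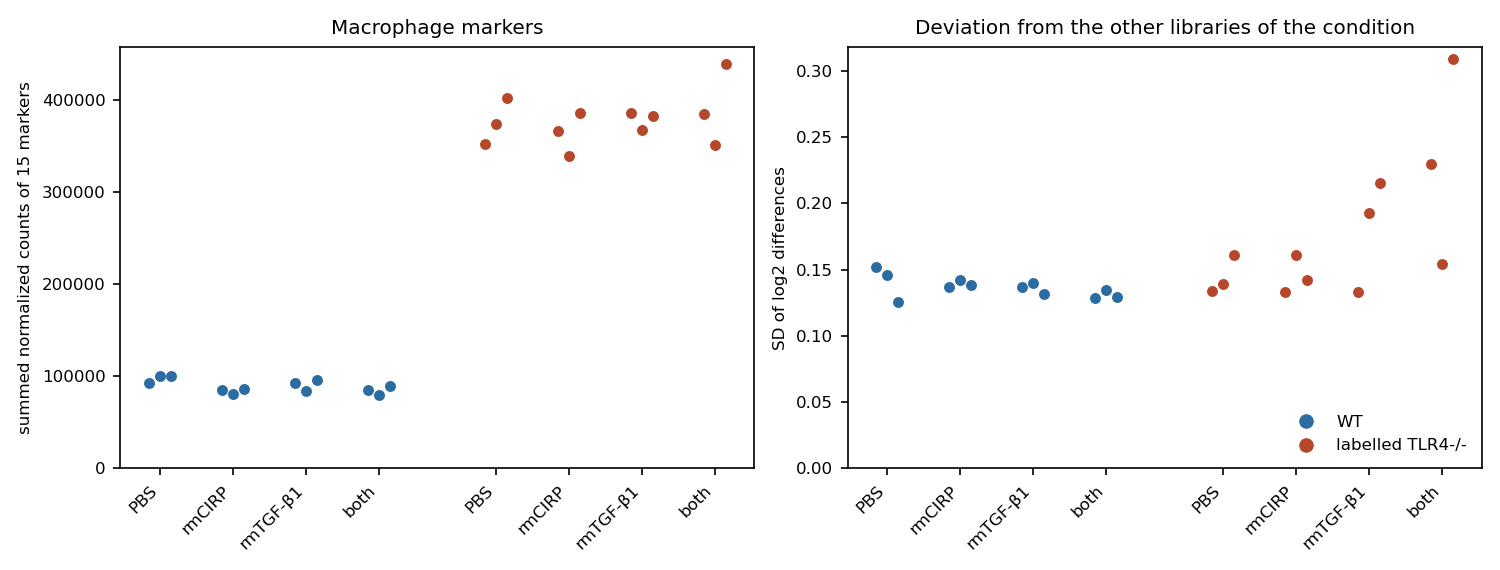
Left, summed normalized counts of 15 macrophage markers in each library (y axis) by treatment (x axis), blue for WT and red for libraries labelled TLR4-/-. Right, SD of each library's log2 differences from the other libraries of its condition. All red points on the left lie above all blue points, and the highest point on the right, 0.309, is library 3 labelled TLR4-/- with the combination.

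The 9 genes differed widely in level. Per kilobase of merged exon, WT fibroblasts with PBS had 5510 ± 348 (SD, n = 3) normalized counts of Cemip, 3928 ± 174 of Cd44 and 3501 ± 252 of Has2. A middle tier held Ptx3 at 598 ± 121 and Hyal2 at 393 ± 13 normalized counts per kilobase. Tnfaip6 (45.5 ± 5.17), Has1 (33.1 ± 8.36), Hyal1 (29.9 ± 1.85) and Has3 (4.85 ± 0.551) were the low tier on the same scale. Per kilobase, the libraries overlapped between the neighbours Cd44 and Has2, Tnfaip6 and Has1, and Has1 and Hyal1, and the SDs do not include error in the exon lengths. Has2 held nearly all reads of the synthases, and Hyal2 stood above Hyal1. Exon lengths were taken from GENCODE M21, in which Hyal1 shares 1920 bases (50.8% of its exon bases) with Naa80 and 159 (4.2%) with Hyal3 on the same strand, so the Hyal1 value is uncertain. Has2 shares 182 bases with the antisense gene Has2os and Has3 shares 352 with Chtf8, both on the opposite strand, and whether the counting used strand is not given in the sources used here.

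In WT fibroblasts rmCIRP changed 6 of the 9 genes against PBS. Has2, Cd44, Tnfaip6 and Ptx3 rose, Hyal1 and Cemip fell, and the log2 fold changes ran from 2.11 for Ptx3 to -0.67 for Cemip. Of all genes tested, 43.9% were called in this comparison, 19.8% higher and 24.1% lower, and the median log2 fold change was 0.45 over the 9 genes and -0.02 over all genes. In the same comparison 6 of 9 fibroblast markers were lower and 2 higher, 11 of 15 macrophage markers lower and 4 higher, 3 of 3 tested epithelial markers lower and 2 of 2 tested neutrophil markers higher, and their part in these results was not tested. rmTGF-β1 alone called 2 of the 9 against PBS, Has2 higher and Ptx3 lower, where 12.4% of all genes were called (5.77% higher and 6.65% lower). Without a count filter, and in the fit on only the libraries compared, 5 members were called, with Cemip lower and Cd44 and Tnfaip6 higher besides. The share of all genes called under these settings is not given here, so the count of 5 is not a result about the members. In the main fit of rmTGF-β1 against PBS, 2019 genes were called over the whole table. They were 1253 without WT PBS library 3 and 1029 without WT rmTGF-β1 library 2, and the 2 members called did not change. With rmCIRP added to rmTGF-β1, 7 of 9 were called against rmTGF-β1 alone: Has2, Has3, Cd44, Tnfaip6 and Ptx3 rose, and Hyal1 and Cemip fell (42.2% of all genes, 20.5% higher and 21.7% lower). With rmTGF-β1 added to rmCIRP, 5 of 9 were called against rmCIRP alone: Has2 and Tnfaip6 rose, and Hyal2, Cemip and Ptx3 fell (20.5% of all genes, 10% higher and 10.5% lower).

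**Figure D2:**
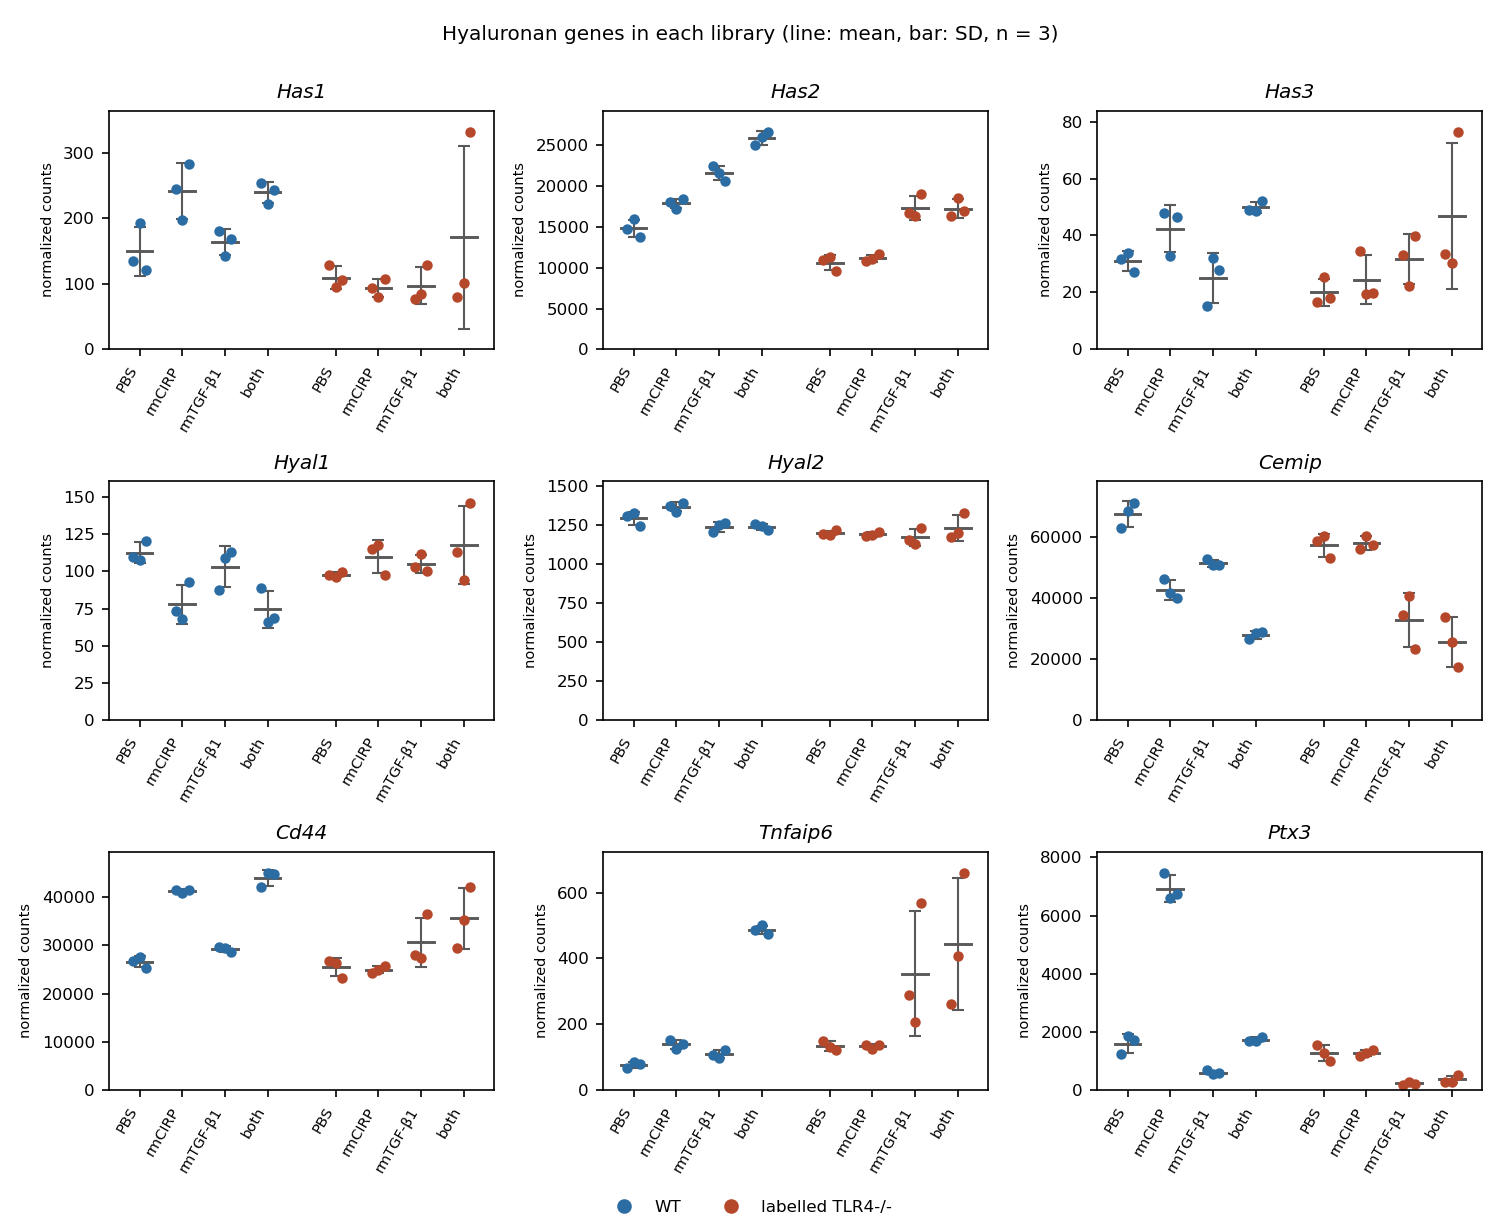
Normalized counts (y axis, linear, from 0) of the 9 hyaluronan genes in every library by treatment (x axis), blue for WT and red for libraries labelled TLR4-/-. Lines mark the mean and bars the SD of the 3 libraries; Ptx3 is highest in WT with rmCIRP (mean 6929) and Tnfaip6 in WT with the combination (mean 487) is above every other WT condition.

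Has2, the synthase that supplies most hyaluronan in fibroblasts, rose with each agent in WT cells. Its normalized counts were 14755, 15940.1 and 13808 under PBS, 18012, 17229 and 18399 after rmCIRP, 22465, 21677 and 20694 after rmTGF-β1, and 25004, 26067 and 26607 after the combination. The 4 conditions did not overlap, and their order was PBS, rmCIRP, rmTGF-β1 and the combination. Compared with PBS, rmCIRP increased Has2 by 0.26 log2 fold (SE 0.07, adjusted p = 0.0028) and rmTGF-β1 by 0.54 log2 fold (SE 0.07, adjusted p = 1.5e-05, edgeR). Added to rmTGF-β1, rmCIRP increased it by 0.26 log2 fold (adjusted p = 0.0037), and added to rmCIRP, rmTGF-β1 increased it by 0.53 log2 fold (adjusted p = 5.3e-06, edgeR). The interaction, which is the response to rmCIRP in the presence of rmTGF-β1 minus the response in its absence, was -0.01 log2 (SE 0.09) for Has2. Has2os, the antisense transcript at the same locus, had means of 46.9, 42.4, 44.0 and 46.4 normalized counts in these 4 conditions in the same order as above, and it was not called in any comparison of WT libraries.

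Has1 and Has3, which make hyaluronan from the same precursors, had few reads. Has1 normalized counts were 135, 193 and 122 in WT with PBS and 245, 198 and 282 with rmCIRP, and these libraries did not overlap. The log2 fold change was 0.69 (SE 0.32) and missed the threshold (adjusted p = 0.102, edgeR). It passed in a fit on the libraries compared alone (0.70, adjusted p = 0.0052) and without a count filter (0.70, adjusted p = 2.4e-08, edgeR). With RLE scaling (0.69), a filter at a mean count of 10 (0.70) or the replicate block (0.66) it passed narrowly, at adjusted p = 0.091 to 0.099 (edgeR). It also passed without WT PBS library 2 (0.92, adjusted p = 0.062) and without WT rmCIRP library 2 (0.82, adjusted p = 0.083, edgeR). In the fits on the libraries compared alone and without a count filter the log2 fold change was nearly that of the main fit. The reason for their lower p-values was not tested. With rmTGF-β1 Has1 was at 182, 142 and 168 normalized counts, within the span of the PBS libraries, and with the combination at 254, 223 and 244. Has3 normalized counts were 31.8, 33.9 and 27.1 under PBS, 47.8, 32.9 and 46.4 after rmCIRP, 15.1, 32.0 and 27.9 after rmTGF-β1 and 48.9, 48.7 and 52.1 after the combination. With rmCIRP against PBS the log2 fold change of Has3 was 0.45 (SE 0.32, adjusted p = 0.29), and it passed in a fit on only those libraries (0.46, adjusted p = 0.088, edgeR). Has3 rose where rmCIRP was added to rmTGF-β1 (0.98 log2 fold, SE 0.32, adjusted p = 0.020), and without WT rmTGF-β1 library 1, the lowest, the log2 fold change was 0.73 (adjusted p = 0.102, edgeR). The difference between these responses of Has3 to rmCIRP, with and without rmTGF-β1, was not called (0.53 log2, SE 0.45, adjusted p = 0.97, edgeR).

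Cemip, whose product binds hyaluronan and drives its breakdown, moved opposite to Has2. In WT libraries it had 62740.5, 68375 and 71079 normalized counts with PBS and 46218, 41504 and 39792 with rmCIRP. With rmTGF-β1 it had 52638, 50733 and 50578.5, and with the combination 26404, 28301 and 28682. No condition overlapped another, PBS was highest and the combination lowest. rmCIRP lowered Cemip by -0.67 log2 fold against PBS (SE 0.17, adjusted p = 0.0027) and by -0.89 log2 fold on top of rmTGF-β1 (SE 0.17, adjusted p = 2.2e-04, edgeR). The change with rmTGF-β1 alone, -0.40 log2 (SE 0.16), was not called in the fit over 24 libraries (adjusted p = 0.15) and was called in the fit on the libraries compared (-0.38, adjusted p = 6.4e-05, edgeR). Added to rmCIRP, rmTGF-β1 lowered Cemip by -0.62 log2 fold (SE 0.17, adjusted p = 0.013), and the interaction of -0.22 log2 (SE 0.23) was not called (edgeR).

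Hyal1, the lysosomal enzyme, was at 110, 108 and 121 normalized counts in WT with PBS and at 73.2, 67.9 and 92.9 with rmCIRP. It fell by 0.53 on the log2 scale with rmCIRP (SE 0.15, adjusted p = 0.0092) and by 0.47 where rmCIRP was added to rmTGF-β1 (SE 0.16, adjusted p = 0.023, edgeR), although the libraries with rmTGF-β1 (87.8, 109 and 113) and the combination (88.7, 66.2 and 68.7) overlapped. Hyal2, the surface-anchored enzyme, stayed between 1204 and 1394 normalized counts in all 12 WT libraries. Its called change in WT cells in the fit over 24 libraries was with rmTGF-β1 on top of rmCIRP, -0.15 log2 fold (SE 0.04, adjusted p = 0.025), from 1374, 1337.5 and 1394 to 1257, 1244 and 1220.1 normalized counts, and the call was lost without WT rmCIRP library 3 (-0.12, adjusted p = 0.14) or without a count filter (-0.14, adjusted p = 0.19, edgeR). With rmCIRP against PBS, Hyal2 was at 0.07 log2 (SE 0.04, adjusted p = 0.18), and it passed with a filter at a mean count of 10 (0.09, adjusted p = 0.098) and in a fit on only those libraries (0.09, adjusted p = 0.080, edgeR).

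Cd44, the receptor, rose with rmCIRP, alone and on top of rmTGF-β1. Its normalized counts were 26796, 27694 and 25363 under PBS, 41511, 40905 and 41467 after rmCIRP, 29675, 29499 and 28577 after rmTGF-β1, and 42091, 44950 and 44898 after the combination. The 6 libraries with rmCIRP lay above the 6 without it. rmCIRP increased Cd44 by 0.63 log2 fold against PBS (SE 0.10, adjusted p = 1.9e-05) and by 0.58 log2 fold against rmTGF-β1 (SE 0.10, adjusted p = 5.2e-05, edgeR). The log2 fold changes with rmTGF-β1 were 0.13 against PBS (SE 0.10) and 0.09 against rmCIRP (SE 0.10), and neither was called, while fits on only the libraries compared called both, at 0.15 (adjusted p = 0.016) and 0.09 (adjusted p = 0.038, edgeR). The libraries did not overlap in either comparison.

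Tnfaip6 and Ptx3 both rose with rmCIRP, alone and on top of rmTGF-β1. Added to rmCIRP, rmTGF-β1 raised Tnfaip6 and lowered Ptx3. Tnfaip6 normalized counts were 68.3, 85.9 and 79.1 in WT under PBS, 153, 125 and 140.3 after rmCIRP, 106, 99.0 and 123 after rmTGF-β1 and 486, 500.2 and 474 after the combination. Every library with the combination was at 474 or above and no other WT library was above 153. The rise with rmCIRP against PBS was 0.83 log2 fold (SE 0.36, adjusted p = 0.073, edgeR). That call was lost without WT PBS library 1 (0.76, adjusted p = 0.17), WT PBS library 3 (0.85, adjusted p = 0.13), WT rmCIRP library 1 (0.76, adjusted p = 0.16) or WT rmCIRP library 3 (0.84, adjusted p = 0.13). rmTGF-β1 against PBS gave 0.50 log2 (SE 0.37) with no call (adjusted p = 0.48, edgeR), and in a fit on only those libraries, which did not overlap, it passed (0.51, adjusted p = 0.026, edgeR). Added to rmTGF-β1, rmCIRP increased Tnfaip6 by 2.14 log2 fold (SE 0.29, adjusted p = 5.8e-06), and added to rmCIRP, rmTGF-β1 increased it by 1.80 log2 fold (SE 0.29, adjusted p = 1.2e-04, edgeR).

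Ptx3, a secreted pentraxin of inflamed tissue, had 1238, 1858 and 1715 normalized counts in WT with PBS and 7456, 6598 and 6734 with rmCIRP. It had 687, 555 and 595 with rmTGF-β1 and 1678, 1712 and 1836 with the combination, so the combination lay within the span of the PBS libraries. rmCIRP increased Ptx3 by 2.11 log2 fold (4.31-fold, SE 0.16 log2, adjusted p = 5.3e-10) and rmTGF-β1 lowered it by -1.39 log2 fold (SE 0.17, adjusted p = 2.0e-05, edgeR). Against rmTGF-β1 alone, the combination was higher by 1.5 log2 fold (SE 0.17, adjusted p = 5.2e-07), and against rmCIRP alone it was lower by -2.0 log2 fold (SE 0.16, adjusted p = 1.6e-08, edgeR).

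In WT cells the interaction between the agents was called for 0 of the 9 genes and for 0.0492% of all genes in the fit over 24 libraries. By unadjusted p under 0.05 it was 2 of the 9 and 917 of all genes, and DESeq2 called 39 genes. With one of the 12 WT libraries left out, 2 to 7 genes and 0 members were called (edgeR). The members were Tnfaip6, with an interaction of 1.31 log2 (SE 0.47, adjusted p = 0.73), and Ptx3, with -0.60 log2 (SE 0.23, adjusted p = 0.79, edgeR). In a fit on the 12 WT libraries alone the estimates were 1.29 for Tnfaip6 (adjusted p = 7.7e-04) and -0.61 for Ptx3 (adjusted p = 0.090), and both passed. The fits differ in the libraries that set the spread, and the part of this in the calls was not tested. The SD of Tnfaip6 was at most 14.2 normalized counts in the 4 WT conditions. It was 189 and 199.7 in libraries labelled TLR4-/- with rmTGF-β1 and with the combination. For Ptx3 the SDs were 67.7 to 461 in the WT conditions, and 44.7 and 135 in those labelled TLR4-/- with rmTGF-β1 and with the combination.

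**Figure D3:**
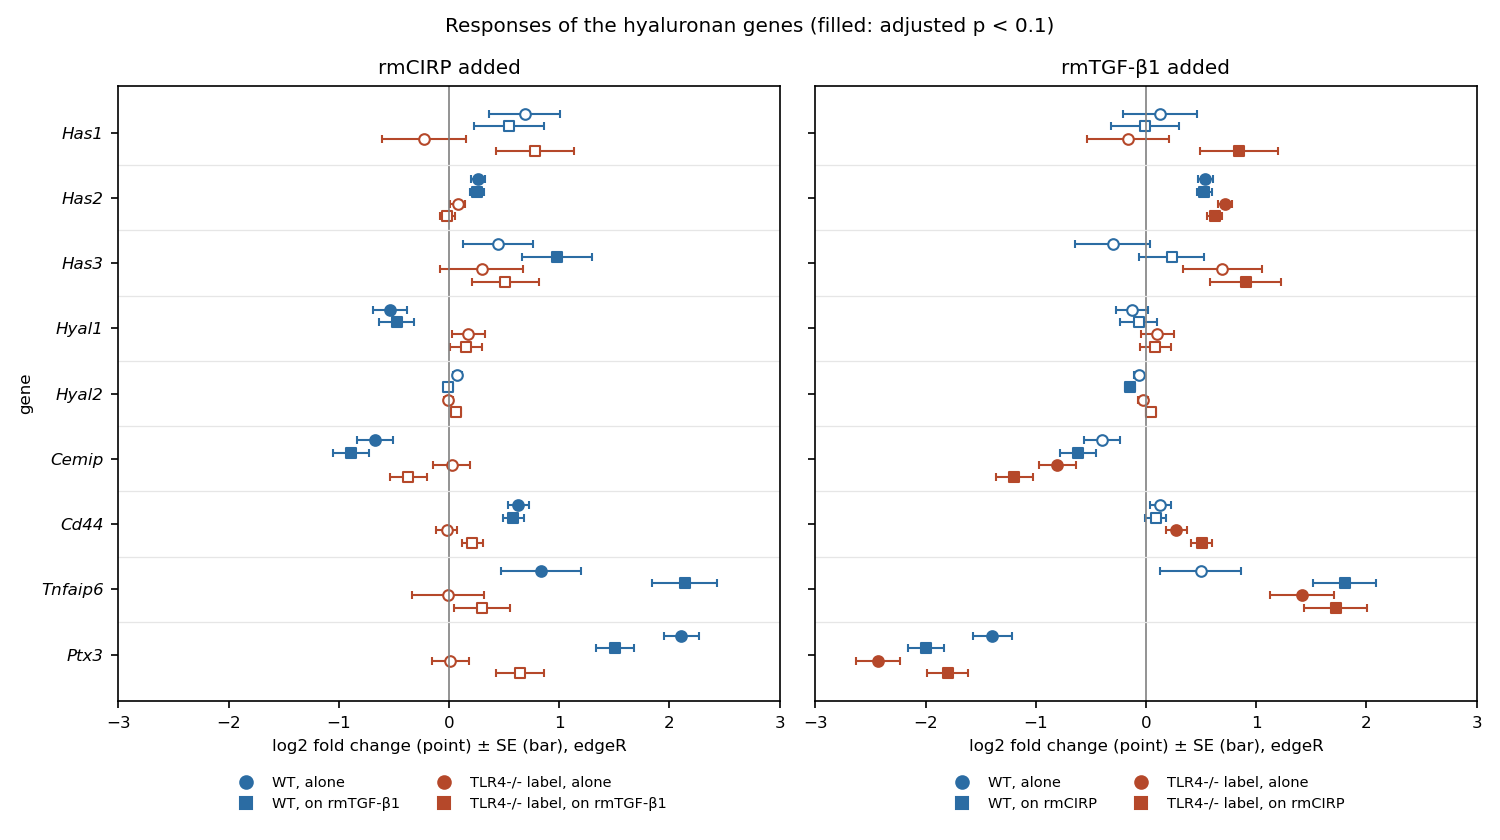
Log2 fold changes (x axis, bars are SE, edgeR) of the 9 hyaluronan genes (y axis) when rmCIRP (left) or rmTGF-β1 (right) was added, alone (circles) or on top of the other agent (squares), in WT (blue) and in libraries labelled TLR4-/- (red); filled symbols have an adjusted p under 0.1. With rmCIRP, 0 red symbols are filled on the left, while Has2, Cemip, Tnfaip6 and Ptx3 have filled red symbols with rmTGF-β1 alone on the right, as does Cd44.

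The sequence before the start of the members was examined for short motifs. They were the kappaB, AP-1 and SMAD motifs, of factors that act downstream of TLR4 or TGF-β1. The TATA box (TATAAA), which is not one of these, was searched too. RefSeq windows of 250 bases before the gene start (GRCm38.p6) were at hand for 7 of the 9 genes. They are shown for Tnfaip6 and Ptx3, which moved in opposite directions with rmTGF-β1 on top of rmCIRP. Cemip, called lower with rmCIRP against PBS and with rmTGF-β1 on top of rmCIRP, is shown too. Capitals mark the motifs found, and each sequence ends at the base before the start.
Tnfaip6, chr2:52037863-52038112, plus strand: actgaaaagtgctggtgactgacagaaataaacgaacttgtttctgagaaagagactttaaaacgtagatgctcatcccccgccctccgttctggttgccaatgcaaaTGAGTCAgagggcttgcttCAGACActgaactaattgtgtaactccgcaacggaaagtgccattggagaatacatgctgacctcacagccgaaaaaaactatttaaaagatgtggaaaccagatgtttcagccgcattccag
Ptx3, chr3:66219637-66219886, plus strand: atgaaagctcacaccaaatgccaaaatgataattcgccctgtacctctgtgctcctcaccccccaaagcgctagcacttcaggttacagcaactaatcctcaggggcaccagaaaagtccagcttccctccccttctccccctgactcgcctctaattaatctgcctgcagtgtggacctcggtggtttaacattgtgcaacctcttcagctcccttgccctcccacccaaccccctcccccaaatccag
Cemip, chr7:84086506-84086755, minus strand: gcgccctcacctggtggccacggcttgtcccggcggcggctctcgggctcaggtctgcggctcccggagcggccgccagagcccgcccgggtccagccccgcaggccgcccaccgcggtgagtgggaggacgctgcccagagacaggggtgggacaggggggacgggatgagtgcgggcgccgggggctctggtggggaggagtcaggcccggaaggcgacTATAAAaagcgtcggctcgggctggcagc

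The Tnfaip6 window holds an AP-1 motif (searched as TGANTCA) 142 bases before the start and a CAGACA, the SMAD box, 123 bases before it, and the motifs do not overlap. On both strands, 6.75% of 32817 such windows in the table hold TGANTCA and 17.1% hold CAGACA. The Cemip window holds a TATA box (TATAAA) 29 bases before the start and no other motif searched. On either strand, 12.4% of windows hold a TATAAA. The Ptx3 and Cd44 windows hold none of the motifs searched. Among the other windows, Has1 has a CAGACA 18 bases before the start, Hyal1 has one on the reverse strand 118 bases before it, and Hyal2 has a match to the kappaB decamer consensus 238 bases before it, found in 7.25% of windows. A match is a description of the letters only, and factor binding was not measured.

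The libraries labelled TLR4-/- showed no called response of any member to rmCIRP. The comparison with PBS called 0 of 9 members and 0% of all genes (edgeR), against 0 members and 1136 genes at an unadjusted p under 0.05 and 32 genes by DESeq2. Without library 3 with rmCIRP, edgeR called 9 genes, and without library 1 with PBS it called 1, with 0 members in each. Cd44 had 26878, 26279 and 23342.5 normalized counts with PBS and 24322, 24941 and 25741 with rmCIRP, and the libraries overlapped. Ptx3 had 1555, 1277 and 1005.5 with PBS and 1180, 1296 and 1376 with rmCIRP, and the difference was 0.01 log2 (SE 0.17). Cemip had 58435, 60201 and 52963 with PBS and 56074, 60349 and 57209 with rmCIRP, and the difference was 0.02 log2 (SE 0.16). The libraries of all 9 genes overlapped between these conditions. The share of all genes whose libraries overlap is not given, so this is not a result about the members.

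The response to rmCIRP differed between genotypes for 4 of the 9 genes, against 31.4% of all genes. The response in libraries labelled TLR4-/- minus that in WT was -2.10 log2 for Ptx3 (SE 0.23, adjusted p = 4.1e-07) and -0.65 for Cd44 (SE 0.14, adjusted p = 0.0011, edgeR). It was 0.69 for Cemip (SE 0.23, adjusted p = 0.033) and 0.71 for Hyal1 (SE 0.21, adjusted p = 0.019, edgeR). For Has2 it was -0.19 (SE 0.09, adjusted p = 0.15), and it passed without WT PBS library 2 (-0.26, adjusted p = 0.058) and without library 3 labelled TLR4-/- with PBS (-0.27, adjusted p = 0.030, edgeR). For Tnfaip6 it was -0.84 (SE 0.49, adjusted p = 0.23) and for Has1 -0.91 (SE 0.50, adjusted p = 0.20), and both passed in a fit on these 12 libraries alone, at -0.85 (adjusted p = 9.3e-04) and -0.92 (adjusted p = 0.0093, edgeR). Has2 passed in that fit too (-0.20, adjusted p = 0.072, edgeR).

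In libraries labelled TLR4-/-, rmTGF-β1 changed 5 of the 9 genes against PBS, where 23.9% of all genes were called: Has2, Cd44 and Tnfaip6 rose, and Cemip and Ptx3 fell. Has2 went from 10925, 11367 and 9574 normalized counts with PBS to 16707, 16330 and 19047, a rise of 0.72 log2 fold (SE 0.07, adjusted p = 1.7e-07). Ptx3 went from 1555, 1277 and 1005.5 to 199.8, 287 and 226, a change of -2.43 log2 fold (SE 0.20, adjusted p = 4.2e-08, edgeR). Tnfaip6 went from 151, 130.3 and 122 to 288, 207 and 567, a rise of 1.41 log2 fold (SE 0.29, adjusted p = 0.0016), and Cemip from 58435, 60201 and 52963 to 34210.5, 40609 and 23065, a change of -0.80 log2 fold (SE 0.17, adjusted p = 0.0016, edgeR). Library 3 with rmTGF-β1 was the highest of the 3 for Has2, Cd44 and Tnfaip6 and the lowest for Cemip. Without library 3 of the rmTGF-β1 condition and library 3 of the combination, the log2 fold changes were 0.64 for Has2, -2.40 for Ptx3, 0.89 for Tnfaip6 (adjusted p = 2.9e-04) and -0.61 for Cemip, and all 4 stayed past the threshold; without library 3 with rmTGF-β1 alone, Tnfaip6 was at 0.89 (adjusted p = 0.024, edgeR). The rise of Cd44, 0.27 log2 fold (SE 0.10, adjusted p = 0.052), did not pass without them (0.13, adjusted p = 0.14), without library 3 with rmTGF-β1 alone (0.13, adjusted p = 0.39) or without library 3 with PBS (0.21, adjusted p = 0.20, edgeR). Over all genes 3884 were called, and 2517 without library 3 with rmTGF-β1.

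The response to rmTGF-β1 was not called as different between genotypes for any of the 9 genes (0 of 9, and 0.0861% of all genes, edgeR; 1 member and 1686 genes at an unadjusted p under 0.05, and 173 genes and 1 member by DESeq2). Ptx3 was that member: its response was more negative by -1.04 log2 (SE 0.27, adjusted p = 0.15) in libraries labelled TLR4-/-, and it passed without library 3 with PBS (-1.20, adjusted p = 0.097) or library 2 with rmTGF-β1 (-1.18, adjusted p = 0.082), both labelled TLR4-/- (edgeR). Leaving out one library gave 0 to 119 genes, the highest without library 2 with rmTGF-β1 labelled TLR4-/-. For Tnfaip6 the difference was 0.92 log2 (SE 0.48, adjusted p = 0.53, edgeR).

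Adding rmCIRP to rmTGF-β1 in libraries labelled TLR4-/- called 0 of 9 genes, where 2.69% of all genes were called (edgeR); 4 members and 2912 genes had an unadjusted p under 0.05, and DESeq2 called 1 member and 924 genes. This comparison depended on single libraries, with 0 to 2674 genes called when one was left out. The highest counts came without library 1 with the combination (2674 genes, 4 members: Has1, Cemip, Cd44 and Ptx3) and without library 3 with rmTGF-β1 (2141 genes, 3 members: Cemip, Cd44 and Tnfaip6). The lowest came without library 1 with rmTGF-β1 (0 genes), library 3 with the combination (1 gene) and library 2 with rmTGF-β1 (79 genes), and 738 genes were called without library 2 with the combination. Without library 3 of both conditions, 652 genes and 2 members passed: Cd44 at 0.22 log2 fold (adjusted p = 0.071) and Cemip at -0.35 log2 fold (adjusted p = 0.052, edgeR).

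Against rmCIRP alone, the combination called 7 of 9 genes in libraries labelled TLR4-/- (32.8% of all genes): Has1, Has2, Has3, Cd44 and Tnfaip6 rose, and Cemip and Ptx3 fell. Has1 and Has3 rested on library 3 with the combination. Has1 had 79.9, 101 and 332 normalized counts there against 94.4, 79.8 and 107 with rmCIRP, and Has3 had 33.5, 30.3 and 76.2 against 34.4, 19.5 and 19.7. Without library 3 of the combination, with or without library 3 of the rmTGF-β1 condition, the log2 fold change of Has1 went from 0.84 (SE 0.35, adjusted p = 0.086) to -0.04, and that of Has3 from 0.90 (SE 0.32, adjusted p = 0.043) to 0.38 (adjusted p = 0.40, edgeR). Leaving out rmCIRP library 1, 2 or 3 also ended the call of Has1 (0.86, 0.75 and 0.95, adjusted p = 0.15, 0.21 and 0.11), and leaving out rmCIRP library 2 or 3 that of Has3 (0.77 and 0.77, adjusted p = 0.15 and 0.14, edgeR). Without library 3 of these conditions the other 5 stayed past the threshold, at 0.64 log2 fold for Has2, 0.37 for Cd44, 1.34 for Tnfaip6, -0.98 for Cemip and -2.12 for Ptx3.

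With PBS alone the genotypes differed in 3 of the 9 genes, against 47.1% of all genes (23.2% higher and 24% lower in libraries labelled TLR4-/-). Has2 was lower, by -0.49 log2 fold (SE 0.07, adjusted p = 2.7e-06, edgeR), with 10925, 11367 and 9574 normalized counts against 14755, 15940.1 and 13808 in WT. This call held without any single library of either condition. Hyal2 was lower by -0.11 log2 fold (SE 0.04, adjusted p = 0.041), with 1193, 1189 and 1217 against 1311, 1327 and 1246. Its call was lost without WT library 1 (-0.08, adjusted p = 0.21) or 2 (-0.08, adjusted p = 0.23), or library 1 (-0.10, adjusted p = 0.12) or 3 (-0.11, adjusted p = 0.11) labelled TLR4-/- (edgeR). Tnfaip6 was higher by 0.79 log2 fold (SE 0.36, adjusted p = 0.086), with 151, 130.3 and 122 against 68.3, 85.9 and 79.1, and its call was lost without any of the 6 libraries (0.71 to 0.88, adjusted p = 0.11 to 0.20, edgeR). Ptx3, at -0.33 (SE 0.16, adjusted p = 0.12), passed without WT library 1 (-0.47, adjusted p = 0.033) or library 1 labelled TLR4-/- (-0.49, adjusted p = 0.036, edgeR). Has1, Has3 and Cemip passed as lower in a fit on only the libraries compared. Their log2 fold changes were -0.43 (adjusted p = 0.062), -0.62 (adjusted p = 0.049) and -0.22 (adjusted p = 0.0055, edgeR). Without a count filter these 3 and Ptx3 passed, and Hyal2 lost its call (-0.10, adjusted p = 0.31, edgeR). The shares of all genes called under these settings are not given here, so these calls are not a result about the members. The summed macrophage markers did not overlap between these conditions, as given above. In libraries labelled TLR4-/- with PBS, 5 of 6 endothelial markers were lower and 3 of 3 tested epithelial markers were higher. Of 7 mesothelial markers 4 were higher and 1 lower, and of 9 fibroblast markers 1 was higher and 3 lower. Of 4 smooth muscle and pericyte markers 1 was higher and 2 lower, and of 2 tested neutrophil markers 1 was higher. The part of these markers in the differences was not tested, and each genotype came from its own pools of lungs, so genotype and pool cannot be told apart.

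Beyond the 9 genes, 11 genes for enzymes that make the UDP-sugar precursors were listed and all were tested. In WT cells 6 rose and 1 fell with rmCIRP against PBS (43.9% of all genes were called, and the median log2 fold change was 0.08, against -0.02 over all genes), and 5 rose and 1 fell when rmCIRP was added to rmTGF-β1 (42.2% of all genes). rmTGF-β1 raised 2 of 11 against PBS (12.4% of all genes called, 5.77% higher) and 5 of 11 on top of rmCIRP (20.5% called, 10% higher), and lowered 0 in either. Gfpt2, an enzyme of the first step towards UDP-N-acetylglucosamine, rose from a mean of 3397 to 5328 normalized counts with rmCIRP (0.64 log2 fold, SE 0.17, adjusted p = 0.0039, edgeR) and reached 7174 with the combination. Gnpnat1 and Pgm3, which act later in the same pathway, rose by 1.04 log2 fold (SE 0.27, from 19.8 to 40.7 normalized counts) and 0.28 log2 fold (SE 0.05, from 1526 to 1859.8 normalized counts).

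**Figure D4:**
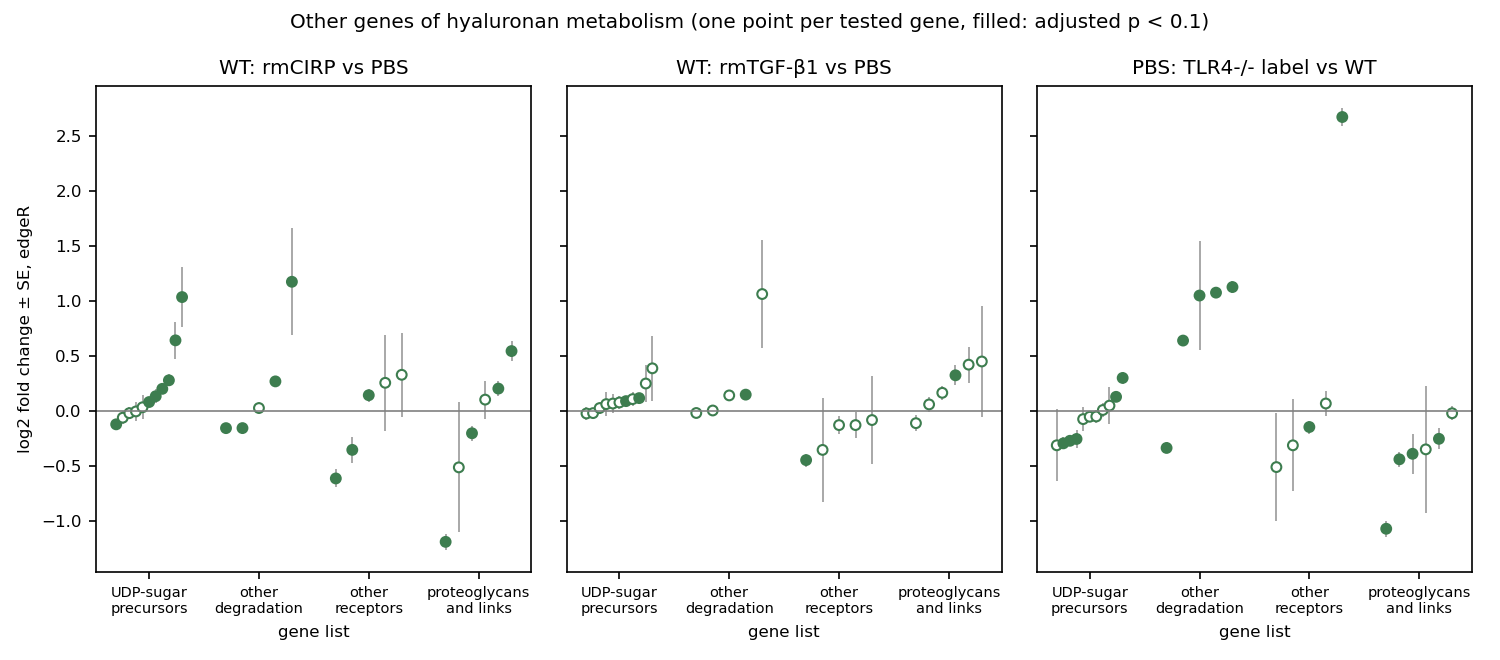
Log2 fold changes (y axis, bars are SE, edgeR) of the other tested genes of hyaluronan metabolism in 4 lists (x axis), one point per gene, filled where the adjusted p is under 0.1. With rmCIRP in WT (left) 6 of 11 precursor genes are higher and 1 lower; with rmTGF-β1 in WT (middle) 2 are higher; with PBS, libraries labelled TLR4-/- against WT (right), 4 of 5 degradation genes are higher and the highest receptor point, 2.67, is Stab1.

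Of 9 other hyaluronidases and degradation enzymes, 5 were tested, and rmCIRP raised 2 and lowered 2 of them in WT cells, where 19.8% of all genes were higher and 24.1% lower. Cemip2, a relative of Cemip in the cell membrane, rose from 3264 to 3953 normalized counts (0.27 log2 fold, SE 0.05, adjusted p = 1.6e-04), and Hexa, a lysosomal hexosaminidase subunit, fell from 5639.8 to 5088 (-0.15 log2 fold, SE 0.04, adjusted p = 0.0049, edgeR). Hyal3 rose by 1.18 log2 fold (SE 0.49, adjusted p = 0.063, edgeR) from 4.02 to 9.26 normalized counts, and it shares exon bases with Hyal1. With PBS, 4 of the 5 were higher and 1 was lower in libraries labelled TLR4-/- (median log2 fold change 1.05, against -0.02 over all genes, of which 47.1% were called), next to the macrophage markers given above.

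Of 5 other hyaluronan receptors, all tested, rmCIRP raised 1 and lowered 2 in WT cells (43.9% of all genes called). Stab1, a scavenger receptor that macrophages and some endothelial cells carry, fell from 2035 to 1336 normalized counts (-0.61 log2 fold, SE 0.08, adjusted p = 3.5e-06). It was higher in libraries labelled TLR4-/- with PBS by 2.67 log2 fold (SE 0.08, adjusted p = 1.0e-16, edgeR), as the macrophage markers were. The macrophage markers summed to 80986 to 86367 normalized counts in WT with rmCIRP, below their range with PBS, and their part in the fall of Stab1 was not tested. Layn, which encodes the membrane receptor layilin, fell with rmTGF-β1 by -0.44 log2 fold against PBS (from 882 to 650.3 normalized counts, SE 0.06, adjusted p = 4.2e-05, edgeR) and by -0.58 log2 fold on top of rmCIRP. Lyve1, the lymphatic vessel receptor, had means of 7.37 to 16.5 normalized counts in WT and fell where rmTGF-β1 was added to rmCIRP (-1.16 log2 fold, SE 0.44, adjusted p = 0.082, edgeR).

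Of 10 hyaluronan-binding proteoglycans and link proteins, 6 were tested, and rmCIRP raised 2 and lowered 2 in WT cells, again against 43.9% of all genes called. Acan, encoding the large proteoglycan aggrecan, fell from 1105 to 487 normalized counts with rmCIRP (-1.19 log2 fold, SE 0.07, adjusted p = 7.4e-12) and from 1244 to 546 when rmCIRP was added to rmTGF-β1 (-1.19 log2 fold, SE 0.07, adjusted p = 6.2e-12, edgeR). Hapln4, a link protein gene, rose from 209 to 306 normalized counts with rmCIRP (0.55 log2 fold, SE 0.09, adjusted p = 5.3e-05) and was at 442 with the combination. Bcan, encoding brevican, rose by 0.90 log2 fold where rmTGF-β1 was added to rmCIRP, from 73.2 to 137 normalized counts (SE 0.16, adjusted p = 3.4e-04, edgeR). The inter-alpha-trypsin inhibitor chains, of which TSG-6 moves the heavy chains onto hyaluronan, had few reads in these cells. Of 6 listed genes 2 were tested, the heavy chain gene Itih2 and the light chain gene Ambp. In the 4 comparisons of WT libraries 0 were called. Itih2 had means of 76.1 to 87.0 normalized counts and Ambp of 1.71 to 4.67 in WT conditions. Between genotypes with PBS both were called, 1 higher and 1 lower, where 47.1% of all genes were called. With PBS, Ambp had a mean of 29.9 normalized counts in libraries labelled TLR4-/- against 4.67 in WT. For Itih2 these means were 66.1 and 87.0.

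Genes whose log2 levels followed each member most closely over the 24 libraries were listed as a description, with Pearson's r over the 12303 genes whose mean normalized count reached 50. The 24 libraries share 8 conditions and 2 genotypes, so they are not independent points. The closest genes were Cnbp for Cd44 (r = 0.98), Olfm2 for Has2 (0.98), Tead1 for Cemip (0.97), Tmem38b for Ptx3 (0.97) and Slc20a1 for Tnfaip6 (0.96). For the remaining members they were Ntrk2 for Has1 (0.95), Thbd for Hyal2 (0.91), Slc22a23 for Has3 (0.87) and Ctsk for Hyal1 (0.86).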

How the data were processed

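Total RNA of mouse pulmonary fibroblasts was sequenced from stranded total RNA libraries on a NextSeq 550. For each of 24 libraries the authors deposited raw ht-seq counts per gene symbol, made from reads that STAR2 had mapped against mouse GENCODE. The submitters' processing notes also name FastQC, HTSeq and NCBIM37; annotation release and strand option are not given in the sources used here. The 5 tally lines of each file, 14.5 to 16.1% of its reads, were left out. Groups follow the labels, with 3 libraries each.

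Counts were tested in R 4.3.3 with edgeR 4.0.16: filterByExpr by condition, TMM, one model over all libraries, quasi-likelihood F-tests of 12 comparisons, and Benjamini-Hochberg adjustment over 16258 genes, with calls under 0.1. The SE is the size of the log2 fold change over the root of F. Levels are counts divided by DESeq2 1.42.0 size factors. The fit was tested on simulated data. Of the file names, 53292 matched GENCODE M21, which was used for exon lengths. Members and gene lists were chosen with earlier results of these data known. Genes named from the lists are at most 3 per list, called in a WT comparison, with the largest log2 fold changes. Alternatives were DESeq2, RLE scaling, other count filters, the replicate number as a block, fits on only the libraries compared, TMM-scaled levels and leaving out libraries. Leaving out library 3 of both conditions with rmTGF-β1 labelled TLR4-/- was chosen after seeing the data. The protein comparison that was planned was not run.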

Additional observations from a re-analysis of the deposited data

Results flagged for a closer look

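The response to rmCIRP differed between genotypes for 4 of the 9 hyaluronan genes by a test of the difference itself (edgeR, 12 libraries contrasted within the model of 24, 3 per condition). The response in libraries labelled TLR4-/- minus that in WT was -2.10 log2 for Ptx3 (SE 0.23, adjusted p = 4.1e-07), -0.65 for Cd44 (SE 0.14, adjusted p = 0.0011), 0.69 for Cemip (SE 0.23, adjusted p = 0.033) and 0.71 for Hyal1 (SE 0.21, adjusted p = 0.019). The same difference was called for 31.4% of all genes tested. Genotype and lung pool cannot be told apart here. Macrophage markers were higher in the libraries labelled TLR4-/-, and their part in these differences was not tested.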

How the results depend on the processing

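For called hyaluronan genes, settings that kept every library left the call and direction in 230 of 234 values and ended the call in 4; with one library left out, 233 of 258 kept it, 24 lost it and 1 turned. For members not called, settings that kept every library gave 46 calls and 5 turned directions in 414 values, and leaving one library out gave 16 and 34 in 552. Levels scaled by TMM moved by less than the SD of the libraries in 72 of 72 cases. The causes of these changes were not tested. For rmCIRP against PBS in WT, the SEs of Has1, Has3 and Tnfaip6 (0.32, 0.32 and 0.36) were larger than those of the other 6 members, and a change that missed the threshold is not shown to be absent.

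DESeq2 called 32 genes for rmCIRP against PBS in libraries labelled TLR4-/- (0 in the main test), 924 genes and 1 member for the combination against rmTGF-β1 there (437 and 0), 173 genes and 1 member for the difference of the genotypes in their response to rmTGF-β1 (14 and 0), and 39 genes for the interaction (8). Without a filter on low counts these were 149 genes, 1580 genes and 5 members, 563 genes and 3 members, and 198 genes and 3 members, and 5 members were called for rmTGF-β1 against PBS in WT (2), 6 between genotypes with PBS (3) and 7 for the difference in the response to rmCIRP (4). A filter at a mean count of 10 gave 23 genes for the difference in the response to rmTGF-β1. In fits on only the libraries compared, 5 members were called for rmTGF-β1 against PBS in WT, 6 between genotypes with PBS, 7 for the difference in the response to rmCIRP and 2 members with 125 genes for the interaction. The same fits gave 29 genes for rmCIRP against PBS, 0 for the combination against rmTGF-β1 and 2710 (5329) for the combination against rmCIRP in libraries labelled TLR4-/-. Where a setting is given with members only, its count over all genes is not given. Such a count of members is then not a result about the members. Hyal2 in WT with the combination against rmTGF-β1, -0.0048 log2 in the main test, was 0.00086 with DESeq2, 0.0011 with RLE scaling, 0.014 with the filter at 10 and 0.00077 on only those libraries.

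Same-numbered libraries of different conditions did not deviate together on average (mean r 0.022 over 84 pairs, -0.29 to 0.56, against -0.011 over 168 pairs with different numbers). Of 24 libraries, 11 correlated best with their own number. Single pairs could still deviate together. Library 3 with rmTGF-β1 and library 3 with the combination, both labelled TLR4-/-, were each the highest of their condition for Has1, Has3, Hyal2, Cd44 and Tnfaip6. Both were the lowest for Cemip. Hyal1 was lowest in the former and highest in the latter, and Has2 and Ptx3 were highest in only one of them. With the replicate number as a block, 1 gene was called for rmCIRP against PBS and 810 for the combination against rmTGF-β1 in libraries labelled TLR4-/-, and 22 for the difference in the response to rmTGF-β1. Under the block, Has1 in WT passed for rmCIRP against PBS (0.66, adjusted p = 0.091, edgeR), its difference between the combination and rmCIRP went from -0.013 to 0.00055, and no other call of a member changed.

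Without library 3 of both conditions with rmTGF-β1 labelled TLR4-/-, 652 genes and 2 members were called for the combination against rmTGF-β1. In that comparison Has2 was at 0.072 log2 and Hyal1 at -0.055. Against rmCIRP, the combination gave -0.043 for Has1, -0.094 for Hyal1 and -0.0097 for Hyal2. For the difference in the response to rmTGF-β1, 190 genes and 1 member were called, and Cd44 was at -0.0011.

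Leaving out one library at a time, 1029 to 1690 genes were called for rmTGF-β1 against PBS in WT, 0 to 9 for rmCIRP and 2517 to 3783 for rmTGF-β1 against PBS in libraries labelled TLR4-/-, and 0 to 2674 genes and 0 to 4 members for the combination against rmTGF-β1 there. It left 1 to 2 members and 6560 to 7071 genes called between genotypes with PBS. For the difference in the response to rmTGF-β1 it left 0 to 119 genes and 0 to 1 member. For the interaction it left 2 to 7 genes. Members not called whose direction turned were, in log2, Has1 (-0.0015 to 0.36) for rmTGF-β1 against PBS in WT, Has1 (-0.13 to 0.13) and Hyal1 (-0.21 to 0.091) for the combination against rmCIRP in WT, Hyal2 (-0.029 to 0.0080) for the combination against rmTGF-β1 in WT, and Has2 (-0.064 to 0.039) and Hyal1 (-0.10 to 0.20) for the interaction. In libraries labelled TLR4-/- they were Has3 (-0.027 to 0.50), Cemip (-0.036 to 0.060), Cd44 (-0.089 to 0.015), Tnfaip6 (-0.080 to 0.083) and Ptx3 (-0.14 to 0.18) for rmCIRP against PBS. They were Has1 (-0.11 to 1.12), Has2 (-0.070 to 0.059), Has3 (-0.020 to 0.75), Hyal1 (-0.020 to 0.30) and Tnfaip6 (-0.090 to 0.83) for the combination against rmTGF-β1, and Hyal1 (-0.092 to 0.23) and Hyal2 (-0.0082 to 0.083) for the combination against rmCIRP, where the called Has1 ran from -0.042 to 1.18. Between genotypes they were Cd44 (-0.10 to 0.012) with PBS and Has3 (-0.48 to 0.054) in the response to rmCIRP.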
